A study of Mus musculus with 20 samples.

Results

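Gene expression in the distal colon (DC) was compared between mice whose diet held 5% or 10% resistant potato starch (RPS) and mice whose diet held 0% or 2% RPS. Members of the pools were taken from the description label alone, which put 10 mice in the high starch pool (5 at 5% and 5 at 10% RPS) and 10 in the low starch pool (5 at 0% and 5 at 2% RPS), the 20 libraries of the whole series. C57BL/6 mice bred in-house were given the Total Western Diet (TWD), a purified diet modelled on what people in the United States eat, from weaning for 6 weeks. They then stayed on it, with RPS mixed in at 0, 2, 5 or 10% by weight, for 3 more weeks, so the mice of both pools all ate the TWD and the labels name the RPS level as the difference between them. A section of colon taken close to the anus gave 1 library of polyadenylated RNA per mouse. The labels name no cage or litter and give the strain but neither the sex nor an exact age, and p-values measure the spread between single mice.

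Resistant starch is starch that escapes digestion in the small bowel and is fermented by bacteria of the large bowel into short-chain fatty acids. The epithelium of the colon absorbs sodium, chloride, water and these acids, holds the bacteria off with mucus and secreted antimicrobial proteins, and renews itself from crypt stem cells whose progeny differentiate on the way to the surface. Retinoids and interferons both act on this epithelium. Enzymes that oxidise retinol take part in making active retinoids, and interferons induce a shared set of antiviral genes.

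For 3 of the 20 mice the treatment label names another RPS level than the description. Mouse RS10_717 was at 5% RPS by its description and at 2% by its treatment label, mouse RS10_748 at 2% and 10%, and mouse RS10_725 at 10% and 5%, so that mouse RS10_725 stayed in the high starch pool under either label while the other two changed pool. The main counts are therefore also given for the 17 mice with agreeing labels, 8 on high and 9 on low starch. Among the 46 genes that passed the adjusted p in those 17 mice, mouse RS10_717 lay nearer to the high starch mean for 38 genes, mouse RS10_725 for 40 and mouse RS10_748 for 22, where the 9 other low starch mice did so for 0 to 12 genes and the 8 other high starch mice for 10 to 46. The 46 genes and both means come from the 17 mice, so the positions of those mice follow in part from the choice. Only the 3 mice with disagreeing labels lay outside it, so the 2 sets of positions are not alike. These positions are a description of the libraries and no mouse was moved on them. Library RS10_721 of the 5% RPS group also stands apart, because it held 1114 CPM (read counts scaled to the library total) of Pnlip and 576 CPM of Cpb1, both pancreatic digestive enzyme genes. Library RS10_784 of the 10% RPS group held 91.6 CPM of Pnlip and 51.8 CPM of Cpb1, and the 18 others held at most 2.66 and 1.59 CPM. Total counts (M, megacounts) ran from 24.5 to 34.97 M in the low starch pool (median 31.2 M) and from 18.4 to 30.4 M in the high starch pool (median 26.5 M), a difference with a two-sided permutation p of 0.0202 over 100000 relabellings. Of 17223 genes with enough counts to test, the median log2 fold change was -0.00.

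Pooling the diets gave 77 called genes, those with an adjusted p no larger than 0.05 that also differed by 1.5-fold or more (0.447% of the genes tested, quasi-likelihood test of edgeR with Benjamini-Hochberg adjustment). Most moved up with starch: 70 genes were higher (0.406%) and 7 were lower (0.0406%) in the high starch pool. Those called higher included enzymes of retinoid and steroid metabolism (Rdh9, Dhrs9, Hsd3b3 and Akr1b7) and ion and water transporters (Slc9a3, Slc13a2 and Aqp4). They also included the dual oxidase gene Duox2, the maturation factor genes Duoxa1 and Duoxa2, and the secreted antimicrobial protein genes Ang4 and Pla2g2a. Others were interferon-stimulated genes (Oas3, Mx1, Ifit1bl1 and Cxcl10) and the keratin of differentiated surface colonocytes, Krt20. Hsd17b14, a hydroxysteroid dehydrogenase gene, was among those called lower. Without the fold threshold 204 genes were higher (1.18%) and 76 lower (0.441%) at the same adjusted p, and 3309 had an unadjusted p under 0.05. The plot of fold change against p shows the called genes on both sides.

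**Figure D1:**
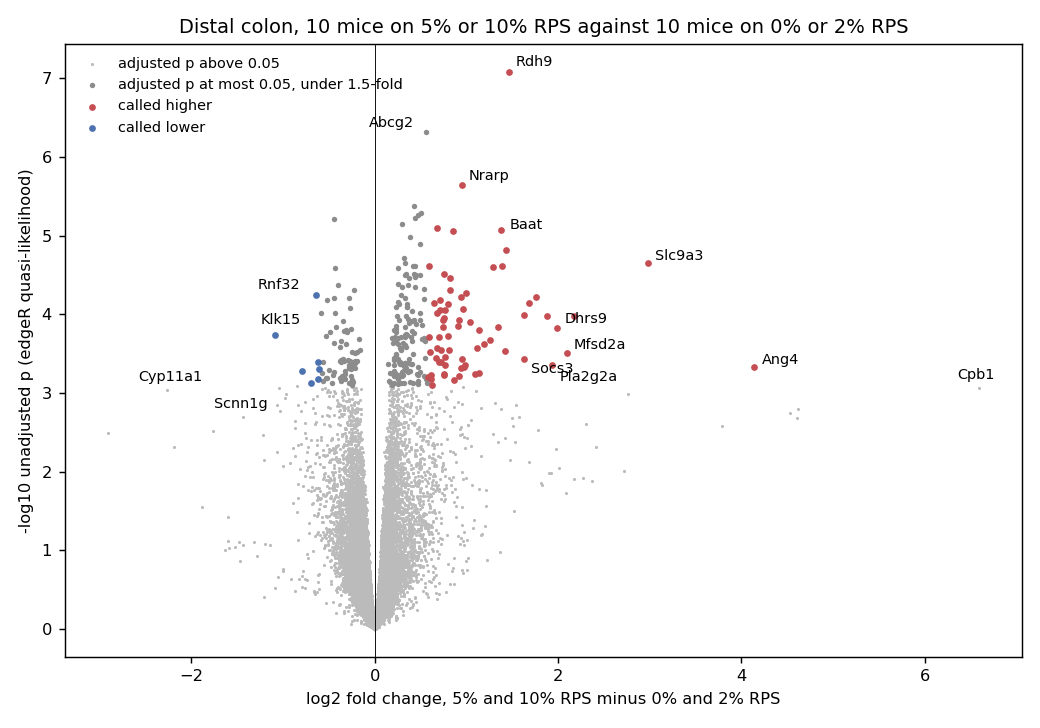
Each point is 1 of 17223 tested genes, with the log2 fold change between the high and low starch pools on the x axis and -log10 of the unadjusted p on the y axis. The 70 red points are genes called higher, the 7 blue points genes called lower, and dark grey points passed the adjusted p without reaching 1.5-fold. Rdh9 lies highest, Ang4 and Slc9a3 lie farthest right among called genes, and Cpb1 on the far right did not pass the adjusted p.

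The size of this set depended on which mice and which label were used. In the 17 mice with agreeing labels 10 genes were called (0.0578% of 17295 tested), all of them higher and all among the 77, and 2901 had an unadjusted p under 0.05. All 77 kept their sign there and all 77 had an unadjusted p under 0.05. Those 17 are part of the 20 mice in which the 77 were chosen. This retention therefore follows largely from the choice and is no separate test. When mice were grouped by the treatment label instead, 0 genes were called by edgeR and 0 passed the adjusted p, with 2411 at an unadjusted p under 0.05. DESeq2 on the 20 mice called 201 genes (160 higher and 41 lower), and all 77 were found in that set. Leaving out 1 mouse at a time gave 11 to 158 calls. Calls fell by more than 1.5 times without mouse RS10_784 (11 calls), RS10_709 (15), RS10_708 (27), RS10_729 (29), RS10_701 (41), RS10_707 (42), RS10_719 (49), RS10_717 (50) or RS10_716 (51), and rose as much without RS10_727 (137) or RS10_724 (158). Without library RS10_721 there were 59 calls, 53 of them shared with the 77.

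**Figure D2:**
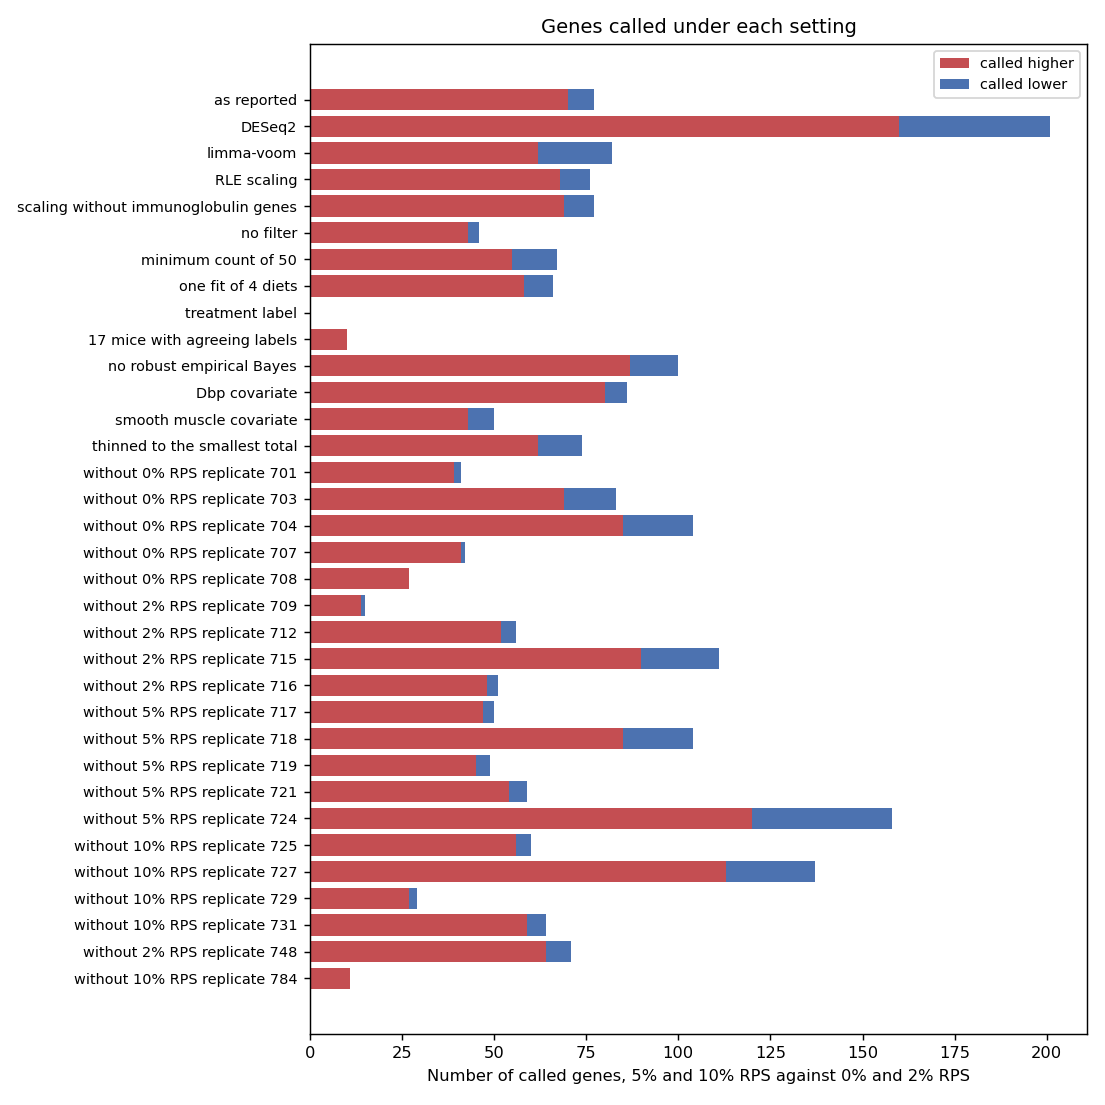
Bars give the number of genes called between the high and low starch pools under each setting (x axis), split into higher (red) and lower (blue). The 77 calls as reported stand at the top, DESeq2 gave the longest bar with 201, the treatment label gave 0 and the 17 mice with agreeing labels gave 10.

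A core of 11 genes was called in each of the 20 fits that left out 1 mouse. These were Rdh9, Nrarp, Cpne2, Baat, Slc13a2, ENSMUSG00000103428, Slc9a3, Gm5431, 1810065E05Rik, Fa2h and 2210009P08Rik, of which Gm5431 (0.0504), Slc9a3 (0.0521) and Cpne2 (0.0529) missed the adjusted p in the 17 mice. The other 66 genes lost the call in at least 1 of the 20 fits. These fits share most of their mice with the set in which the genes were chosen, so staying called is no separate test. Under the treatment label 0 genes passed the adjusted p, so none of the core did. ENSMUSG00000103428 is not in the annotation used here and is known only by its identifier. The map of the 77 genes by mouse shows how evenly the pools differed.

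**Figure D3:**
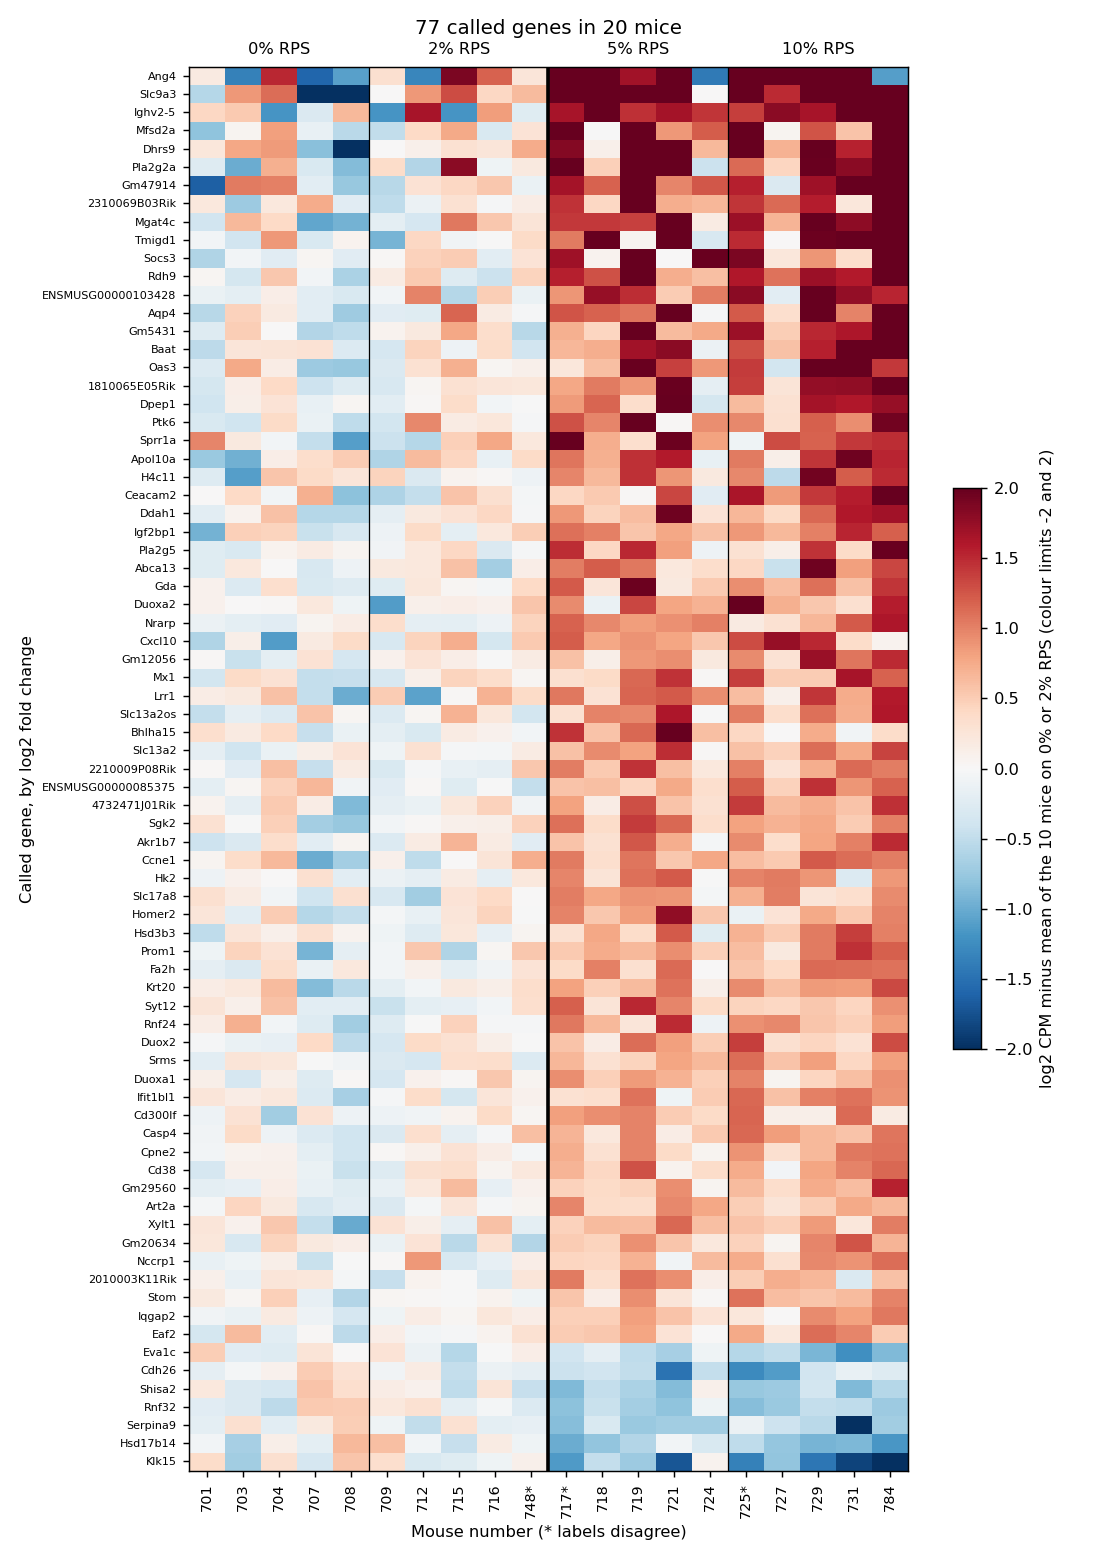
Rows are the 77 called genes ordered by log2 fold change, columns the 20 mice ordered by diet with a heavy line between the pools, and colour the log2 CPM minus the mean of the 10 low starch mice, limited to -2 and 2. Most high starch mice are red for the 70 upper rows and blue for the 7 lower rows, mouse RS10_724 at 5% RPS is paler than its neighbours, and the mice marked with an asterisk have disagreeing labels.

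Retinoid and steroid enzymes gave the most clearly separated gene. Rdh9 (ENSMUSG00000056148, chromosome 10, 127612255 to 127628566, forward strand), a retinol dehydrogenase, measured 1.29 to 3.02 CPM (median 2.04 CPM) on low starch and 3.13 to 8.48 CPM (median 6.22 CPM) on high starch. No high starch mouse lay within the range of the low starch mice. Its log2 fold change of 1.46 (SE 0.19), adjusted p of 0.00143, was the smallest p of all genes, a 2.75-fold difference. Its adjusted p was 0.0103 in the 17 mice, 0.00579 without mouse RS10_707 at the highest of the 20 fits, and 0.109 under the treatment label. Only 3 genes (0.0174%) did not overlap between the 10 and 10 mice. The second was Igf2bp1, an RNA-binding protein gene at 0.169 to 0.582 CPM (median 0.412 CPM) and 0.607 to 1.25 CPM (median 0.813 CPM), with a log2 fold change of 1.0002 (SE 0.20), adjusted p of 0.0213. The last was Cplane1, a ciliogenesis gene at 13.99 to 16.2 CPM (median 14.8 CPM) on low and 10.9 to 13.8 CPM (median 13.4 CPM) on high starch, which fell short of the adjusted p (0.0627). Rdh9 overlaps Rdh16f1 on the same strand in the annotation, so reads of the pair may have been shared.

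Dhrs9 (ENSMUSG00000027068, chromosome 2, 69210776 to 69234877, forward strand), another short-chain dehydrogenase that oxidises retinol, ran from 0.300 to 3.45 CPM (median 2.21 CPM) on low starch and from 2.02 to 22.3 CPM (median 7.79 CPM) on high starch. The pools overlapped, with 7 of 10 high starch mice above the highest low starch mouse, and it had a log2 fold change of 1.99 (SE 0.42), adjusted p of 0.0271. Hsd3b3, a 3-beta-hydroxysteroid dehydrogenase gene, rose from 12.6 to 22.5 CPM (median 18.9 CPM) to 15.2 to 47.1 CPM (median 30.2 CPM), with a log2 fold change of 0.76 (SE 0.16), adjusted p of 0.0247. It belongs to a family of close copies, and how reads that match several genes were counted is not given in the sources used here. Akr1b7, an aldo-keto reductase gene, measured 1.16 to 2.55 CPM (median 1.48 CPM) and 1.52 to 4.52 CPM (median 2.69 CPM), with a log2 fold change of 0.80 (SE 0.18), adjusted p of 0.0282. Of the 26 tested members of the list of retinoid and steroid metabolism these 4 were called higher and 0 lower, beside 0.406% and 0.0406% of all genes, and Rdh16 passed the adjusted p alone. The rest lay on both sides of 0, with 11 members higher and 15 lower in all and a median of -0.05. Cyp11a1, which starts steroid synthesis by cleaving cholesterol, had the lowest value of the list, at 0.380 to 9.94 CPM (median 2.08 CPM) on low and 0.154 to 2.28 CPM (median 0.360 CPM) on high starch. Its log2 fold change of -2.26 (SE 0.58) missed the threshold (adjusted p = 0.0522). Hsd17b14, a hydroxysteroid dehydrogenase gene that was not on the list, was called lower (-0.79, adjusted p = 0.0425). Baat (ENSMUSG00000039653, chromosome 4, 49489289 to 49506563, reverse strand), which joins bile acids to glycine or taurine, belongs to no list and went from 1.81 to 3.60 CPM (median 2.77 CPM) to 2.41 to 11.8 CPM (median 7.19 CPM). With 9 of 10 high starch mice above every low starch mouse, it had a log2 fold change of 1.38 (SE 0.24), adjusted p of 0.0125.

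Sodium and water transport held the second largest fold change of the called genes. Slc9a3 (ENSMUSG00000036123, chromosome 13, 74269360 to 74317561, forward strand), the sodium and hydrogen exchanger NHE3 of the apical membrane, measured 1.49 to 20.1 CPM (median 11.7 CPM) on low starch and 8.09 to 188 CPM (median 76.2 CPM) on high starch. Every high starch mouse but one, RS10_724 at 8.09 CPM, lay above the highest low starch mouse. It had a log2 fold change of 2.98 (SE 0.53), adjusted p of 0.0174, a 7.89-fold difference, and was called in 20 of the 20 fits. Its adjusted p was 0.0521 in the 17 mice, just past the threshold, with a log2 fold change of 3.06. Its span overlaps Exoc3 on the other strand. Aqp4, a water channel gene on chromosome 18, ran from 35.1 to 129 CPM (median 53.1 CPM) on low and 56.4 to 372 CPM (median 132 CPM) on high starch, with a log2 fold change of 1.42 (SE 0.32), adjusted p of 0.0338. Without library RS10_721 its log2 fold change was 1.1997 and its adjusted p 0.0553.

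Further members of the same list of 33 electrolyte transport genes passed the adjusted p without reaching 1.5-fold. Car4, a membrane carbonic anhydrase of surface colonocytes, measured 883 to 1455 CPM (median 1209 CPM) and 1240.2 to 1948 CPM (median 1747 CPM), with a log2 fold change of 0.50 (SE 0.09), adjusted p of 0.0158. Car12, another carbonic anhydrase, had a log2 fold change of 0.55 (adjusted p = 0.0387), the water channel Aqp8 0.54 (0.0431), the chloride and bicarbonate exchanger Slc26a3 0.39 (0.0473) and the anoctamin Ano9 0.35 (0.0219). Best2, a bestrophin anion channel gene, fell by 0.47 (0.0476). In all, 2 members were called higher and 0 lower, beside 0.406% and 0.0406% of all genes, and 7 and 1 passed the adjusted p, beside 1.18% and 0.441%. Members that passed it as higher numbered 2 in the 17 mice and 3 without library RS10_721. The list median was 0.10. None of the subunits of the epithelial sodium channel passed, and they did not lie on the same side of 0. Scnn1a had a log2 fold change of 0.17 (SE 0.07, adjusted p = 0.198). Scnn1g measured 21.7 to 74.9 CPM (median 36.3 CPM) and 1.91 to 27.9 CPM (median 12.7 CPM), with a log2 fold change of -1.44 (SE 0.40, adjusted p = 0.0678), and 7 of 10 high starch mice lay under every low starch mouse. Scnn1b measured 16.5 to 55.4 CPM (median 29.2 CPM) and 7.33 to 33.9 CPM (median 14.6 CPM), with a log2 fold change of -0.98 (SE 0.26, adjusted p = 0.0563). limma-voom called both, with adjusted p-values of 0.0214 and 0.0286.

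Slc13a2 (ENSMUSG00000001095, chromosome 11, 78287913 to 78313060, reverse strand), a sodium-coupled carrier of citrate and related acids, was outside this list. It measured 52.9 to 86.2 CPM (median 68.5 CPM) and 70.8 to 194 CPM (median 121 CPM), with a log2 fold change of 0.86 (SE 0.15), adjusted p of 0.0125. The annotation places the non-coding Slc13a2os on its other strand, which was also called, at 4.68 to 10.6 CPM (median 6.21 CPM) and 6.48 to 20.2 CPM (median 12.9 CPM). Libraries were stranded but the strand setting of the counting is not given in the sources used here, so reads of the pair cannot be told apart with certainty. Abcg2 (ENSMUSG00000029802, chromosome 6, 58561505 to 58672661, forward strand), an efflux pump for drugs, urate and plant compounds, had the second smallest p of all genes. It ran from 49.3 to 65.0 CPM (median 60.3 CPM) on low and 59.6 to 102 CPM (median 89.7 CPM) on high starch, with 9 of 10 high starch mice above every low starch mouse. Its log2 fold change of 0.57 (SE 0.08), adjusted p of 0.00417, was a 1.48-fold difference, just under the fold threshold. In the list of 35 xenobiotic genes it was joined by the carboxylesterases Ces2e (0.47, adjusted p = 0.0431) and, lower, Ces2a (-0.32, adjusted p = 0.0430), with 0 members called and a median of -0.05.

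**Figure D4:**
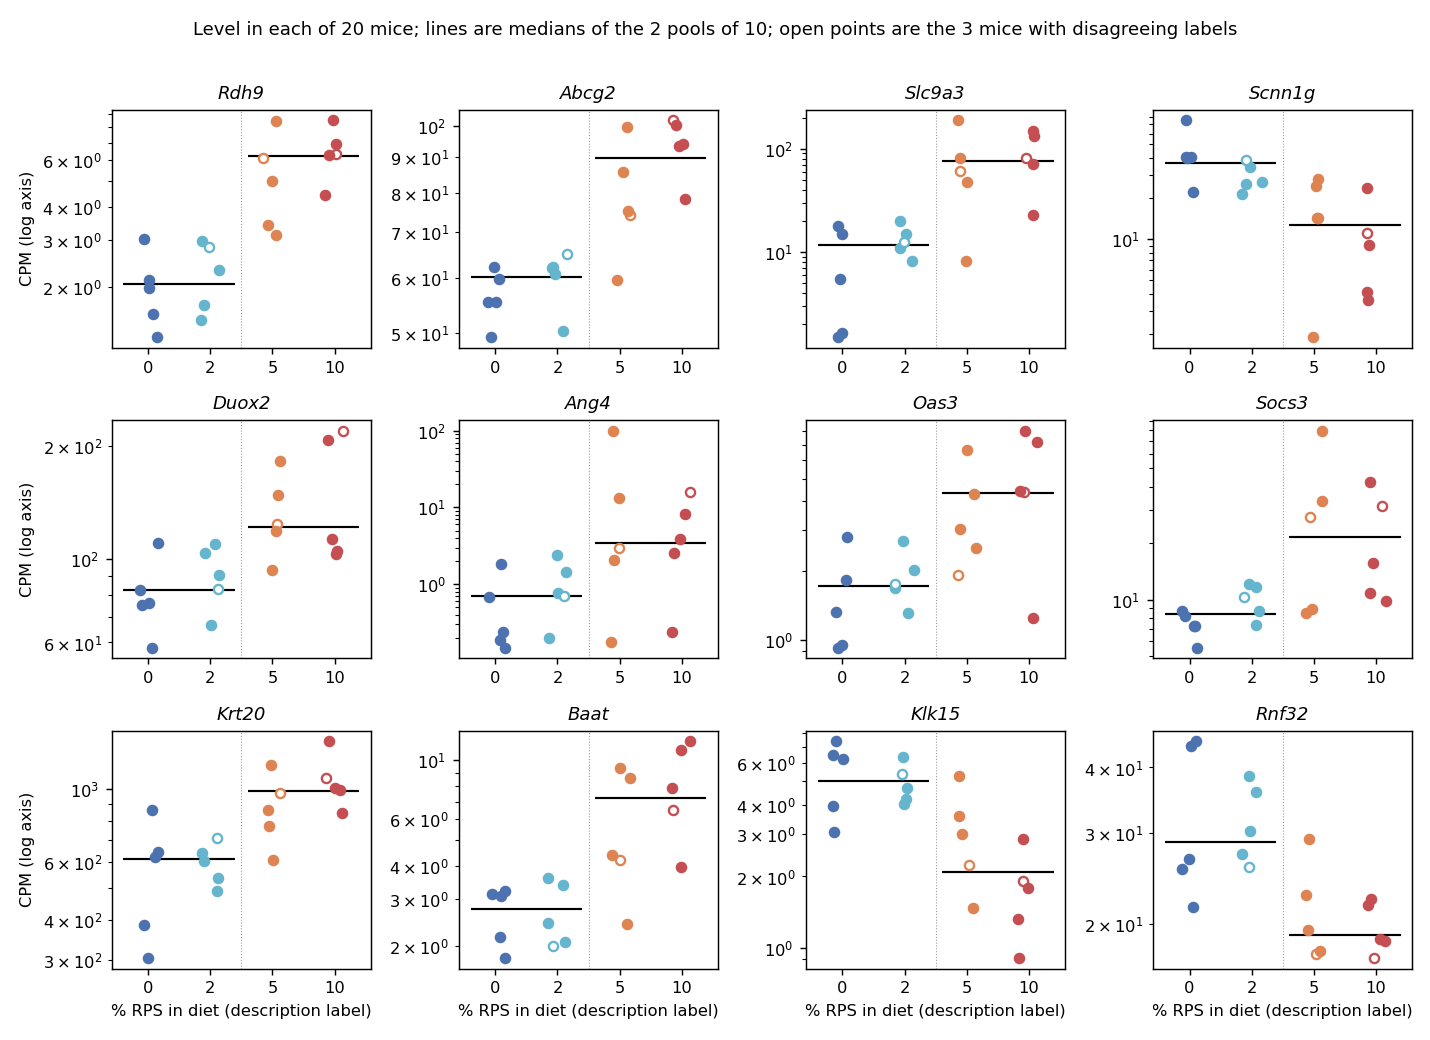
Each panel plots 1 gene, with the RPS level by the description label on the x axis, CPM on a log y axis, 1 point per mouse, the median of each pool of 10 as a line and open points for the 3 mice whose labels disagree. Rdh9 does not overlap between the pools, Slc9a3 and Ang4 spread widest within the high starch pool, and Scnn1g, Klk15 and Rnf32 are lower there.

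Epithelial defence genes made the list with the most calls. Of 26 tested members 6 were called higher and 0 lower, beside 0.406% and 0.0406% of all genes. In all 7 passed the adjusted p, each of them higher, beside 1.18%, and 1 did so in the 17 mice. The median was 0.40 beside -0.00 over all genes. Like the other lists, this list was chosen with earlier results of these data known. Duox2 (ENSMUSG00000068452, chromosome 2, 122109728 to 122128930, reverse strand), the dual oxidase that releases hydrogen peroxide into the gut lumen, measured 58.2 to 110.1 CPM (median 82.9 CPM) on low starch and 93.4 to 219 CPM (median 121 CPM) on high starch. All but 3 high starch mice exceeded every low starch mouse, with a log2 fold change of 0.72 (SE 0.16), adjusted p of 0.0333. The genes of the dual oxidase maturation factors lie next to it on chromosome 2. Duoxa2, which brings Duox2 to the cell surface, measured 4.11 to 13.2 CPM (median 9.59 CPM) and 8.17 to 36.2 CPM (median 15.2 CPM), with a log2 fold change of 0.96 (SE 0.23), adjusted p of 0.0387. Duoxa1, at 0.475 to 0.930 CPM (median 0.639 CPM) and 0.651 to 1.31 CPM (median 1.01 CPM), had a log2 fold change of 0.71 (SE 0.15), adjusted p of 0.0231, and overlaps Duoxa2 at its end. Duox2 was called in 11 of the 20 fits and Duoxa2 in 8 of the 20 fits.

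Casp4, the inflammatory caspase that senses bacterial lipopolysaccharide in the cytosol, rose from 23.1 to 46.5 CPM (median 28.9 CPM) to 33.8 to 67.7 CPM (median 48.5 CPM), with a log2 fold change of 0.68 (SE 0.14), adjusted p of 0.0237, and was also called in the 17 mice (0.0458). The genes of the secreted phospholipases Pla2g2a and Pla2g5 lie on opposite strands of the same stretch of chromosome 4, Pla2g2a inside the span of Pla2g5. Because the strand setting of the counting is not given, reads of this pair cannot be told apart with certainty. The same holds for the overlapping Duoxa1 and Duoxa2. Pla2g2a, whose product kills Gram-positive bacteria and whose gene is disrupted in the C57BL/6 strain, was scarce at 0.158 to 1.52 CPM (median 0.334 CPM) and 0.268 to 3.90 CPM (median 1.62 CPM), with a log2 fold change of 1.94 (SE 0.46), adjusted p of 0.0391. Pla2g5 measured 13.2 to 21.8 CPM (median 16.5 CPM) and 15.2 to 63.95 CPM (median 25.3 CPM), with a log2 fold change of 0.98 (SE 0.23), adjusted p of 0.0391. Neither passed in the 17 mice, with adjusted p-values of 0.0916 for Pla2g2a and 0.0921 for Pla2g5. Pla2g2a was called in 6 and Pla2g5 in 7 of the 20 fits. Plac8, the last to pass, had a log2 fold change of 0.43 (adjusted p = 0.0274).

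Ang4 (ENSMUSG00000060615, chromosome 14, 51990721 to 52011053, reverse strand), an angiogenin secreted by Paneth and goblet cells that acts on bacteria, had the largest fold change of the called genes and a wide spread. It measured 0.149 to 2.37 CPM (median 0.694 CPM) on low starch and 0.179 to 99.2 CPM (median 3.40 CPM) on high starch. The pools overlapped, since 3 high starch mice lay within the low starch range, and the highest value came from library RS10_721. Its log2 fold change of 4.14 (SE 0.98), adjusted p of 0.0403, became 2.69 with an adjusted p of 0.0740 without that library, and it was called in 7 of the 20 fits. Ang4 also has close relatives in the genome. It was the only called member of the 27 goblet and mucus genes, beside 0.447% of all genes. The median of that list was 0.19 with 23 higher and 4 lower. The membrane mucin gene Muc3a (0.57, adjusted p = 0.0475) and the fucosyltransferase gene Fut2 (0.47, 0.0476) also passed the adjusted p. In the 17 mice, and again without library RS10_721, 0 members of this list passed it as higher. Clca1, an abundant goblet cell product, measured 1232 to 2638 CPM (median 1627 CPM) and 1230.3 to 4067 CPM (median 2517 CPM) and did not pass (0.61, 0.0678). Retnlb, a goblet cell antimicrobial protein, was too scarce to be tested, at most 0.444 CPM on low starch and at most 2.08 CPM on high starch outside library RS10_721, which held 23.5 CPM.

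Most interferon-stimulated genes lay higher on high starch, and a few of them passed the test. Of 46 type I interferon-stimulated genes 41 were higher and 5 lower on high starch, beside 8439 of 17223 genes higher in all, with a median of 0.23. In this list 6 genes passed the adjusted p and 3 were called, all higher, beside 1.18% and 0.406% of all genes. In the 31 genes of the interferon-gamma response and MHC class I the median was 0.19, with 27 higher, 4 lower, 3 past the adjusted p and 2 called. Medians in the 17 mice were 0.22 and 0.14, beside -0.01 over all genes, and 0 members of either list passed the adjusted p there. Genes of a list are not independent of each other.

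To show what precedes these genes, the 250 bases before the start of each canonical transcript were read from GRCm39 and searched on both strands for the core of the interferon-stimulated response element (GAAANNGAA) and for the gamma-activated site (TTCNNNGAA). The core was in 19 of 46 windows of the type I list (41.3%) and 9 of 31 of the interferon-gamma list (29.0%), beside 7.15% of 17154 windows of tested genes. The gamma-activated site was in 13.0% and 22.6% of the lists' windows, beside 6.73%. Of the 68 genes called higher that have a window, 8 held the core (11.8%) and 6 the gamma-activated site (8.82%). Of the 7 called lower, 2 held the core (28.6%) and 0 the other. The 2 motifs share letters and can overlap, and a match is a description of the letters, not evidence of binding. Windows of called members of the interferon lists are shown here because these genes rose together, 5′ to 3′ on the reverse strand, with matches in capitals. They are whole for Cxcl10 (chr5:92496749-92496998) and Ifit1bl1 (chr19:34579357-34579606), and 30 bases around the matches for Oas3 (chr5:120915778-120915807) and Socs3 (chr11:117860328-117860357), whose windows overlap exons of other transcripts.
Cxcl10: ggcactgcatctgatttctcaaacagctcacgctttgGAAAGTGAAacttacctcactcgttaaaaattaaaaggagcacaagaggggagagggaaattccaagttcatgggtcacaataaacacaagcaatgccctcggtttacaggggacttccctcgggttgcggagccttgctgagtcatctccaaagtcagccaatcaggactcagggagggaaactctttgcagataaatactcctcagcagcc
Ifit1bl1: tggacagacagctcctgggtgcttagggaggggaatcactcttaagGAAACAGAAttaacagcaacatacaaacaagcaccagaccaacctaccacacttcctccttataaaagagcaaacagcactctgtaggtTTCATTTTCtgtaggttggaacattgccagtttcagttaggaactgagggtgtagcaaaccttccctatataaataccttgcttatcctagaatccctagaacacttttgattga
Oas3: agggaggaGAAAACGAAAGTGAAgggaggt
Socs3: agaaaccagccTTCTTAGAAgggagggggg
The window of Mx1 held neither motif.

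Oas3 (ENSMUSG00000032661, chromosome 5, 120891163 to 120915729, reverse strand), which makes the second messenger that activates RNase L, has 2 overlapping core matches in that stretch. It measured 0.931 to 2.78 CPM (median 1.71 CPM) on low starch and 1.25 to 8.03 CPM (median 4.34 CPM) on high starch. In all 7 of 10 high starch mice lay above the whole low starch range, with a log2 fold change of 1.34 (SE 0.29), adjusted p of 0.0267. Mx1, a gene of the dynamin-like GTPase family, measured 2.63 to 5.03 CPM (median 3.89 CPM) and 3.75 to 11.7 CPM (median 6.80 CPM). Its RNA had a log2 fold change of 0.93 (SE 0.20), adjusted p of 0.0247, and its protein was not measured. Ifit1bl1, a member of the tetratricopeptide antiviral family, went from 125 to 256 CPM (median 215 CPM) to 186 to 442 CPM (median 332 CPM), with a log2 fold change of 0.71 (SE 0.16), adjusted p of 0.0282. Parp12 (0.36, adjusted p = 0.0201) and Samd9l (0.25, 0.0387) were among those that passed without reaching 1.5-fold. Zbp1, a sensor of nucleic acids, measured 4.99 to 19.5 CPM (median 9.71 CPM) and 8.41 to 66.9 CPM (median 26.6 CPM) and did not pass (1.32, 0.0590).

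Among interferon-gamma genes, Irf1, a transcription factor gene at 113 to 153 CPM (median 142 CPM) and 136 to 249 CPM (median 188 CPM), had a log2 fold change of 0.44 (SE 0.09), adjusted p of 0.0174. Only 2 high starch mice lay within the low starch range. Socs3 (ENSMUSG00000053113, chromosome 11, 117856905 to 117860898, reverse strand), the feedback inhibitor of cytokine receptors that signal through STAT3, measured 5.56 to 12.1 CPM (median 8.41 CPM) and 8.53 to 79.2 CPM (median 21.7 CPM), with a log2 fold change of 1.63 (SE 0.38), adjusted p of 0.0387. Mouse RS10_719 held its highest value, and without it the log2 fold change was 1.27 with an adjusted p of 0.0510. Cxcl10, a T cell attractant, was low at 0.432 to 1.74 CPM (median 1.14 CPM) and 1.07 to 3.58 CPM (median 1.88 CPM), with a log2 fold change of 0.94 (SE 0.23), adjusted p of 0.0407.

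Among genes of colonocyte identity and growth single members were called. Krt20 (ENSMUSG00000035775, chromosome 11, 99319227 to 99328985, reverse strand), a keratin of the differentiated upper crypt, measured 305 to 867 CPM (median 612 CPM) and 609 to 1401 CPM (median 985 CPM), with a log2 fold change of 0.75 (SE 0.16), adjusted p of 0.0267. It was the only called gene of 12 colon epithelium markers, beside 0.447% of all genes. Cdh17, an intestinal cadherin, had 0.34 (adjusted p = 0.0215) and Hoxb13, a homeobox gene of the hindgut, -0.24 (0.0453), and the median of the markers was 0.15. Of 18 crypt stem cell genes 1 was called higher and 0 lower, beside 0.406% and 0.0406% of all genes, with a median of -0.04. That gene was Prom1, a membrane protein gene at 32.3 to 89.0 CPM (median 61.1 CPM) and 69.9 to 169 CPM (median 99.1 CPM), with a log2 fold change of 0.76 (SE 0.19), adjusted p of 0.0430. Nrarp (ENSMUSG00000078202, chromosome 2, 25070770 to 25073351, forward strand), a target and inhibitor of Notch signalling, measured 1.91 to 3.10 CPM (median 2.10 CPM) and 2.58 to 7.09 CPM (median 4.38 CPM), with a log2 fold change of 0.95 (SE 0.15), adjusted p of 0.0125. The related kinase genes Ptk6 and Srms, neighbours on chromosome 2, were called together. Ptk6 measured 7.81 to 21.8 CPM (median 10.5 CPM) and 11.3 to 59.1 CPM (median 21.8 CPM), with a log2 fold change of 1.19 (SE 0.26), adjusted p of 0.0305, and Srms had a log2 fold change of 0.71 (SE 0.15), adjusted p of 0.0215.

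In the list of 26 carbohydrate and lipid genes 2 were called higher and 0 lower, beside 0.406% and 0.0406% of all genes. The list median was 0.08. Hk2, the hexokinase that starts glycolysis, measured 139 to 203 CPM (median 157 CPM) and 134 to 377 CPM (median 308 CPM), with a log2 fold change of 0.77 (SE 0.16), adjusted p of 0.0231. Mfsd2a, a carrier of lysophospholipids, had 0.564 to 1.88 CPM (median 1.001 CPM) and 1.03 to 17.4 CPM (median 2.54 CPM), with a log2 fold change of 2.10 (SE 0.48), adjusted p of 0.0350, and mouse RS10_719 held the top value. Without that mouse its log2 fold change was 1.59. Mgam2-ps, related to the brush border maltase, passed the adjusted p at 0.49 (0.0174). Other large rises belong to no list. Mgat4c, a glycosyltransferase gene, went from 11.9 to 51.3 CPM (median 25.4 CPM) to 27.5 to 159 CPM (median 73.0 CPM) (1.68, adjusted p = 0.0219), and Tmigd1, an adhesion protein gene of the epithelium, from 0.479 to 1.82 CPM (median 0.948 CPM) to 0.760 to 6.00 CPM (median 3.41 CPM) (1.63, 0.0241). Cpne2, a calcium-dependent membrane-binding protein gene, measured 19.2 to 30.9 CPM (median 26.1 CPM) and 26.5 to 54.1 CPM (median 41.0 CPM), with a log2 fold change of 0.68 (SE 0.12), adjusted p of 0.0125. Gm5431 and ENSMUSG00000103428 completed the 12 largest rises, at 1.39 (adjusted p = 0.0174) and 1.43 (0.0174). The paper places Gm5431 among its antiviral response genes of the DC, though it is on neither interferon list used here.

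A further 4 genes were called in the 17 mice, and 3 of them also in each fit without 1 mouse. Fa2h, which hydroxylates fatty acids of membrane sphingolipids, measured 47.2 to 73.9 CPM (median 55.4 CPM) and 58.4 to 127 CPM (median 101 CPM), with a log2 fold change of 0.76 (SE 0.14), adjusted p of 0.0174. Iqgap2, a scaffold protein gene, measured 131 to 192 CPM (median 163 CPM) and 165 to 341 CPM (median 237 CPM), with a log2 fold change of 0.59 (SE 0.11), adjusted p of 0.0174, and was called in 11 of the 20 fits. The Riken genes 1810065E05Rik (1.29, adjusted p = 0.0174) and 2210009P08Rik (0.82, 0.0174) have no role named here. Enzymes of the cell surface and of nucleotide and arginine metabolism were also called, chosen for mention after their values were seen. Dpep1, a membrane dipeptidase, went from 16.1 to 27.4 CPM (median 21.3 CPM) to 16.6 to 119.9 CPM (median 43.0 CPM), with a log2 fold change of 1.26 (SE 0.27), adjusted p of 0.0287. Ddah1, which breaks down methylated arginines that inhibit nitric oxide synthesis, went from 6.58 to 14.9 CPM (median 10.02 CPM) to 11.98 to 38.2 CPM (median 16.9 CPM), with a log2 fold change of 1.04 (SE 0.22), adjusted p of 0.0252. The guanine deaminase gene Gda had 0.96 (adjusted p = 0.0231), the NAD glycohydrolase gene Cd38 0.68 (0.0325) and the kinase gene Sgk2, a relative of the aldosterone-induced Sgk1, 0.80 (0.0219). In the 17 mice none of these 5 passed, with adjusted p-values of 0.0620, 0.0622, 0.0617, 0.0887 and 0.0569 for Ddah1, Dpep1, Gda, Cd38 and Sgk2.

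Falls were fewer and smaller. Klk15 (ENSMUSG00000055193, chromosome 7, 43581062 to 43590174, forward strand), a kallikrein serine protease gene, measured 3.07 to 7.36 CPM (median 5.03 CPM) on low starch and 0.911 to 5.27 CPM (median 2.08 CPM) on high starch. In 8 of 10 high starch mice it lay under every low starch mouse, with a log2 fold change of -1.08 (SE 0.24), adjusted p of 0.0282. Rnf32, a RING finger protein gene, fell from 21.6 to 44.9 CPM (median 28.7 CPM) to 17.2 to 29.2 CPM (median 19.1 CPM), with a log2 fold change of -0.64 (SE 0.13), adjusted p of 0.0215. Shisa2, an inhibitor of Wnt and FGF receptor maturation, fell from 49.5 to 105 CPM (median 76.4 CPM) to 38.1 to 76.1 CPM (median 43.9 CPM), with a log2 fold change of -0.62 (SE 0.15), adjusted p of 0.0387. Each of the other 3 with a mean of at least 1 CPM fell by 0.60 to 0.70 on the log2 scale. Serpina9, a serine protease inhibitor gene, had an adjusted p of 0.0476, the cadherin gene Cdh26 0.0453 and Eva1c 0.0413. None of the falls was called in the 17 mice. The remaining call, Hsd17b14, a hydroxysteroid dehydrogenase gene, had a mean under 1 CPM, at 0.475 to 1.29 CPM (median 0.761 CPM) and 0.317 to 0.759 CPM (median 0.432 CPM).

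Several lists had no called member, read beside 0.447% of all genes. Cholesterol synthesis had the highest median of all function lists, 0.51, with 22 of 23 genes higher but 0 past the adjusted p. Its regulator Srebf2 had 0.31 (adjusted p = 0.0617) and the enzyme gene Sqle 0.65 (0.114). Summed over the list the low starch mice held 1336 to 2789.7 CPM (median 1837 CPM) and the high starch mice 1375 to 3566 CPM (median 2556 CPM), so the pools overlapped over most of their range. In the 19 plasma cell and immunoglobulin genes the median was 0.44, and the constant region gene Ighg1 ran from 0.601 to 40.2 CPM (median 5.78 CPM) and 7.69 to 52.7 CPM (median 25.4 CPM), with 1.17 (adjusted p = 0.289). Cell cycle genes (25 tested) had a median of 0.14, led by the replication genes Mcm4 (0.49, adjusted p = 0.0620) and Mcm2 (0.57, 0.0658). The 22 genes of short-chain fatty acid transport, sensing and oxidation had a median of -0.00 and a range of -0.27 to 0.28. Its smallest p was that of Bsg, the chaperone of monocarboxylate transporters (0.15, adjusted p = 0.0739). MHC class II (10 genes, 0.09), immediate early (20, 0.11, or 0.05 without library RS10_721) and circadian clock genes (19, -0.11) held 0 genes past the adjusted p. Metal handling (20, -0.05) held 1, the ferroxidase gene Heph (0.43, adjusted p = 0.0125), while the metallothionein gene Mt1 had -1.07 (0.0610). The clock output gene Dbp spanned 9.53 to 114 CPM on low starch and 3.81 to 78.1 CPM on high starch.

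Cell type markers were set beside these groups, since in pieces of whole colon fewer cells of a type and less RNA per cell cannot be told apart. Markers of the muscle and stroma were lower together: all 12 of smooth muscle (median -0.13), 10 of 11 of fibroblasts and matrix (-0.13), all 9 of endothelium (-0.12), 11 of 12 of macrophages (-0.26), 10 of 14 of enteric neurons and glia (-0.06) and 6 of 7 of skeletal muscle (-0.08). Of these only Cd68, a macrophage gene, passed the adjusted p (-0.50, 0.0418). The smooth muscle genes summed to 10128 to 17746 CPM on low and 7984 to 14356 CPM on high starch. With their mean log2 level as a covariate, a setting chosen after seeing the data, 50 genes were called, 39 of them among the 77. Rdh9 (0.000157), Slc9a3 (0.0408), Ifit1bl1 (0.0144), Socs3 (0.0407) and Klk15 (0.0496) kept an adjusted p under the threshold in that fit. Of 76 named genes tested 0 changed sign and 22 lost it, the latter including Krt20 (0.0521), Mgat4c (0.0505), Mx1 (0.0588), Oas3 (0.0599), Duox2 (0.0618), Aqp4 (0.0688), Tmigd1 (0.0755), Dhrs9 (0.0761) and Ang4 (0.131). The other marker lists were not used as covariates. Without library RS10_721 the smooth muscle median was -0.09.

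Medians of the lymphoid and minor epithelial markers lay above 0 in the 20 mice, not all of them in smaller sets. B cell markers were higher in 11 of 11 (0.37), tuft cell markers in 7 of 7 (0.20), T cell markers in 7 of 11 (0.07) and enteroendocrine markers in 6 of 10 (0.07), of which the peptide gene Pyy passed the adjusted p (0.44, 0.0201). The T cell median was -0.04 in the 17 mice, and the enteroendocrine median -0.03 there and -0.06 without library RS10_721. The B cell and tuft cell medians kept their sign in both sets, at 0.25 and 0.17 in the 17 mice and 0.42 and 0.12 without that library. Adipocyte markers (10, 0.54, or 0.21 without library RS10_721, which held their highest sum at 404 CPM) and erythroid markers (5, -0.62) held 0 calls. Squamous epithelium and skin markers (9 tested, 0.02) held Klk15, lower, and Sprr1a, higher (1.14, adjusted p = 0.0430), and summed to 18.3 to 31.4 and 16.1 to 30.1 CPM. The 5 tested pancreatic acinar markers had a median of 3.79, or 1.13 without library RS10_721, and 0 passed the adjusted p. The plot of the lists shows these medians with every tested member.

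**Figure D5:**
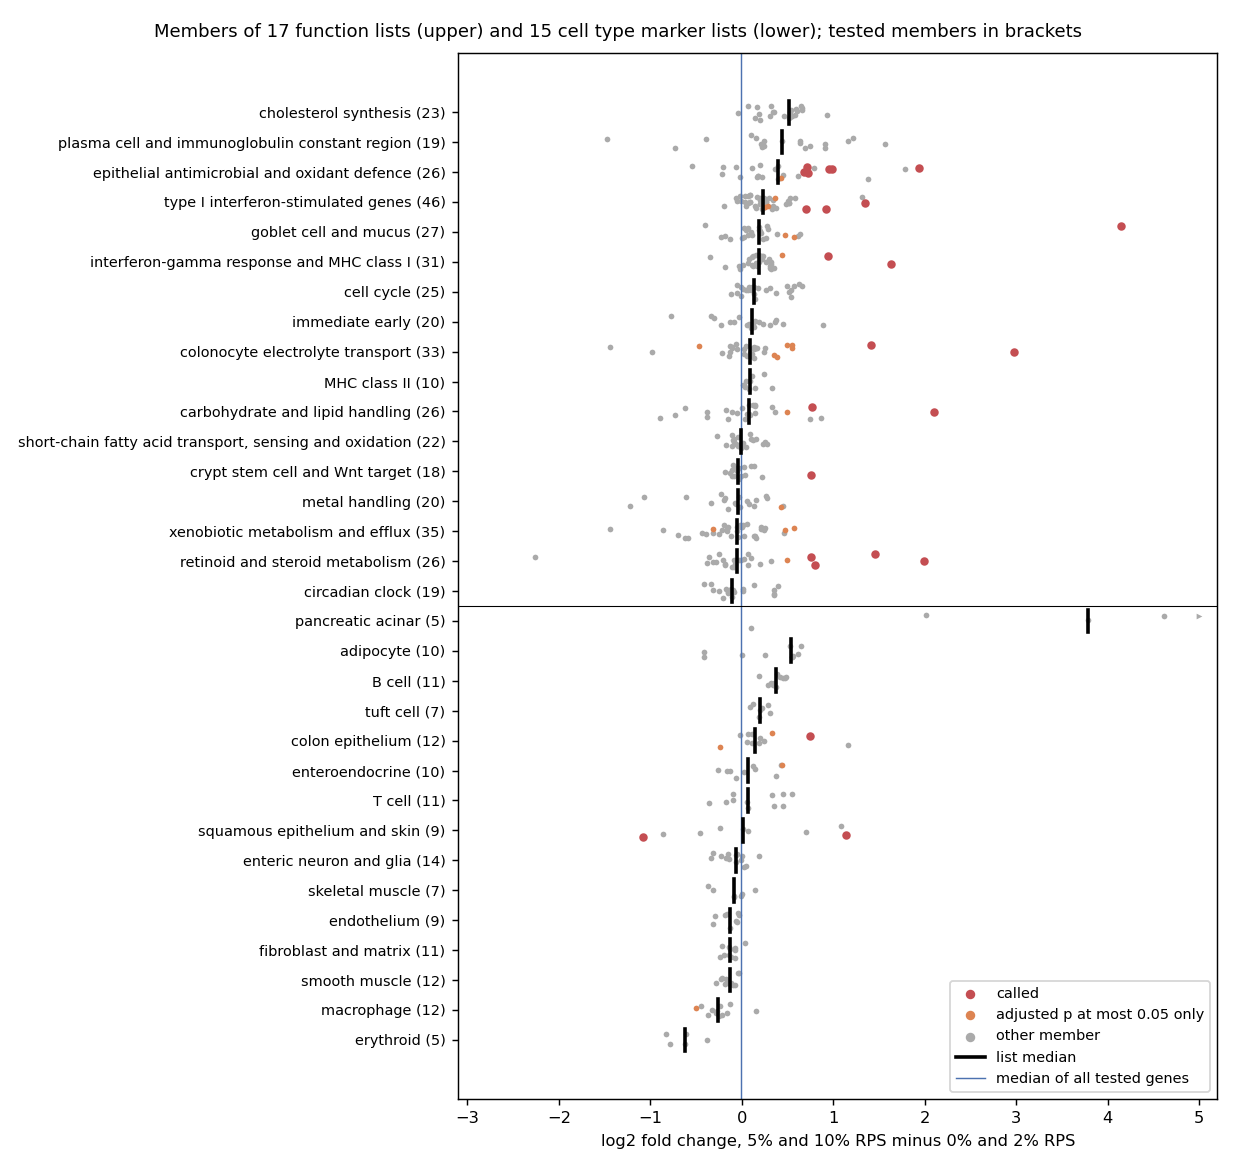
Rows are the 17 function lists and, under the line, the 15 marker lists, with the log2 fold change between the high and low starch pools on the x axis, 1 point per tested member, a black bar at the list median and a blue line at the median of all tested genes. Called genes are red, with 6 in the defence list, 4 in the retinoid list and at most 3 in any other, and the arrowhead marks a pancreatic gene beyond the axis.

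Whether the shift lay between the pools or ran through them was described by the 3 steps between neighbouring diets in one fit of the 4 groups. No step had a call of its own by edgeR: 0 genes (0%) from 0 to 2% RPS, 0 (0%) from 2 to 5% and 0 (0%) from 5 to 10%, with 253, 1168 and 1041 genes at an unadjusted p under 0.05. DESeq2 called 1 gene at each step. All 70 genes called higher were higher at 5 than at 2% RPS, which the call itself favours, with a median step of 0.79 on the log2 scale. The steps inside the pools do not enter the pooled difference: 52 of the 70 were higher at 2 than at 0% RPS (median 0.17), beside 49.7% of all genes, and 49 were higher at 10 than at 5% (median 0.20), beside 47.5%. Of the 7 genes called lower, 6 were lower at 2 than at 0% RPS and 6 at 10 than at 5%. Klk15 was a falling example, at 5.41 ± 1.82, 4.92 ± 0.930, 3.11 ± 1.44 and 1.77 ± 0.737 CPM at 0, 2, 5 and 10% RPS (SD, n = 5 each). Nrarp was flat inside the pools, at 2.17 ± 0.264, 2.41 ± 0.550, 4.53 ± 0.425 and 4.30 ± 1.91 CPM, and Socs3 was highest at 5% RPS, at 7.38 ± 1.195, 10.00 ± 2.00, 31.6 ± 28.9 and 21.98 ± 14.2 CPM. These steps rest on 5 mice a diet and were not tested against each other, and the 70 genes are not independent of each other. The steps include the 3 mice with disagreeing labels, RS10_748 at 2%, RS10_717 at 5% and RS10_725 at 10% RPS. They are not given without those mice, so a trend with dose inside the pools was not tested.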

How the data were processed

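RNA of the distal colon of 20 mice was sequenced from stranded TruSeq mRNA libraries, and the authors deposited 1 table of raw read counts per gene, made with CLC Genomics Workbench on GRCm39. The annotation release, the strand setting and the treatment of reads that map to several genes are not given in the sources used here. No column of the table was left out (0 columns), and 26338 of 26619 gene identifiers matched the annotation used for names and positions (GENCODE vM39, GRCm39). Total counts were 18.4 to 34.97 megacounts per mouse, and no 2 libraries of a diet agreed within sampling noise (chi-square per degree of freedom 9.74 to 67.9 over 40 pairs).

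Genes with a count of at least 10 in enough mice (filterByExpr of edgeR 4.0.16, R 4.3.3) were scaled by TMM and tested with the quasi-likelihood test (robust), with Benjamini-Hochberg adjustment over all 17223 genes. Called genes had an adjusted p no larger than 0.05 and differed by 1.5-fold or more. CPM are counts scaled to the TMM-adjusted library total, and log2 CPM were taken with a prior count of 2. The fit has the pool as its only term, without diet inside the pool. The mouse numbers are unique, so no mice were paired across diets.

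Alternatives were DESeq2 1.42.0, limma-voom (limma 3.58.1), other scalings and filters, a fit of the 4 diets, the treatment label, the 17 mice with agreeing labels, fits without 1 mouse, a Dbp covariate, and, chosen after seeing the data, a smooth muscle covariate and thinning to the smallest total. Fits were tested on simulated data. Genes named by rule were the 12 largest rises and up to 12 falls among the calls whose mean was 1 CPM or more. The rule also took the called members and the 3 smallest p-values of each of 17 function lists, and a set of genes named whatever their values. Beside them stood 15 marker lists. Other genes in the text, such as Baat, Nrarp, Slc13a2, Ptk6 and Fa2h, fall outside the rule and were chosen with their values known. The counts over 76 named genes cover the rule alone. The members of the pools and the lists were chosen with earlier results of these data known, and some lists were taken from work that had seen them. Promoter windows of 250 bases before GENCODE starts were searched on both strands for GAAANNGAA and TTCNNNGAA.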

Additional observations from a re-analysis of the deposited data

Results flagged for a closer look

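In 19 cases the highest or lowest of the 10 mice of a pool stood far from the other 9 for a gene named here, by the 95% critical value of Dixon's test. For normally distributed values chance passes about 1 in 20 groups, or 7.7 of the 154 tests made over the named genes and both pools. The test was run on CPM without logs, which need not be normally distributed. The number that chance would pass here is therefore not known, and the cases are a description.

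In the low starch pool, mouse RS10_715 held the highest value for 5 genes: Aqp4 at 128.6 CPM (79.3 CPM in the next mouse), Pla2g2a at 1.52 CPM (0.678 CPM), the receptor gene Ephb3 at 76.8 CPM (59.0 CPM), and the immediate early genes Nr4a3 at 9.35 CPM (5.36 CPM) and Btg2 at 384.0 CPM (213.6 CPM). Other mice of the pool stood out for 1 gene each. Duoxa1 was 0.930 CPM in mouse RS10_716 (0.678 CPM), the plasma cell receptor gene Tnfrsf17 2.06 CPM in mouse RS10_703 (1.26 CPM) and Scnn1g 74.9 CPM in mouse RS10_708 (40.5 CPM). Duoxa2 was lowest in mouse RS10_709, at 4.11 CPM (8.44 CPM).

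In the high starch pool, mouse RS10_719 held the highest Socs3 at 79.2 CPM (42.1 CPM in the next mouse), Mfsd2a at 17.4 CPM (7.91 CPM) and Zbp1 at 66.9 CPM (37.2 CPM). Mouse RS10_724 held the highest value of 2 genes called lower, Rnf32 at 29.2 CPM (22.8 CPM) and Shisa2 at 76.1 CPM (54.7 CPM). Library RS10_721, with the pancreatic transcripts, held Ang4 at 99.2 CPM (15.8 CPM). Mouse RS10_725 held the immunoglobulin light chain gene Iglc3 at 80.7 CPM (26.7 CPM) and the MHC class II gene H2-DMb1 at 15.2 CPM (12.3 CPM). Nr4a3 was 20.9 CPM in mouse RS10_727 (11.6 CPM), and Serpina9 was lowest in mouse RS10_731, at 0.940 CPM (2.77 CPM).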

How the results depend on the processing

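Against 77 calls (70 higher, 7 lower, 280 by the adjusted p alone), DESeq2 gave 201 (160, 41 and 841), the removal of the low count filter 46 (43, 3 and 140), the smooth muscle covariate 50 (43, 7 and 153), the 17 mice with agreeing labels 10 (10, 0 and 46) and the treatment label 0 (0, 0 and 0). Lower calls were 20 with limma-voom, 12 with a minimum count of 50, 13 without robust estimation and 12 after thinning to the smallest total. A fold threshold of 1.2 gave 220 calls, and DESeq2 in the 17 mice 135. At the steps between diets DESeq2 called 1, 1 and 1 gene where edgeR called 0. Fits without 1 mouse ranged from 11 to 158 calls, 11 to 120 higher, 0 to 38 lower and 38 to 603 by the adjusted p alone. The cause of these changes was not tested. RLE scaling (76 calls), scaling without immunoglobulin genes (77), the fit of 4 diets (66), the Dbp covariate (86) and thinning (74) stayed within 1.5 times of 77. Over 76 tested named genes and all settings, 2009 of 2500 values kept their side of the adjusted p, 417 lost it, 74 gained it and 0 changed sign. No paired analysis was possible because each mouse number occurs once.

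Genes under the low count filter were not tested. High starch libraries were shallower, and thinning, chosen after seeing the data, left 67 of the 77 called.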
